A study of Homo sapiens with 3 samples.

Results

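ADIRF, the 5 perilipins, PPARG, FABP4, FABP5 and CIDEC were followed in 3 lung cancer cell lines, 10 genes of the 43316 that the array names. The members were chosen by their symbols with their measured values in these lines already known, so the ratios below were selected on the measurements they describe and are given as a description. Each gene was found by the symbol that the array gives its probes, and all 16 probes of the 10 genes were kept. H1975 (NCI-H1975) is a human non-small cell lung cancer line whose EGFR carries both the activating L858R and the gatekeeper T790M changes, and it is sensitive to osimertinib, an EGFR inhibitor. OR1 and OR2 are clones derived from it independently of each other, by raising osimertinib stepwise to 2 μmol/L over 4 months. All 3 lines were cultured in RPMI with 10% serum, and total RNA of each was labelled and hybridized to 1 single-colour array. OR1 and OR2 are thus 2 clones of 1 parent, each measured once, and no test between lines was possible.

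A lipid droplet is a store of triglycerides and sterol esters inside the cell, wrapped in a single layer of phospholipid and a coat of proteins. Perilipins are the best known of these coat proteins and govern the access of lipases to the stored fat. PPARG is the nuclear receptor that drives the programme of fat cell formation, and ADIRF (adipogenesis regulatory factor) is a small protein first described in adipose tissue that promotes that programme. The fatty acid binding proteins FABP4 and FABP5 carry fatty acids through the cytosol, and CIDEC enlarges droplets by moving lipid from one to another.

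ADIRF and PLIN4 stood far above the other members in both resistant clones, at 120.0 and 48.5 times H1975 in OR1 and at 99.0 and 46.9 times in OR2. More cells with the transcript and more transcript per cell cannot be told apart in these bulk samples. PLIN5 was at 2.82 times H1975 in OR2, PLIN2 at 0.468 in OR1 and FABP5 at 0.482 in OR2, each past the limits of 2 and 0.5 in a single clone. These calls depended on the processing. PLIN5 was at 1.40 with another background correction (normexp, which adds an offset of 50 to every intensity). PLIN2 was at 1.15 with the median of its probes and FABP5 at 0.532 with quantile normalization. PPARG itself was at 0.686 in OR1 and 0.832 in OR2. PLIN1 and FABP4, the perilipin and the binding protein most typical of fat cells, stayed below the limit of detection in all 3 lines.

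The promoters of ADIRF and of 3 perilipins are printed here because these genes differed so widely in ratio, and because PLIN4, PLIN5 and PLIN3 lie on the same arm of chromosome 19. Each runs from 250 bases before the start of the gene to 50 after it, in RefSeq on GRCh38.p14, read 5′ to 3′ on the strand of the gene. Capitals mark every match, on either strand, to TATAA (other strand TTATA), to the GC box GGGCGG (other strand CCGCCC), and to AGGTCA (other strand TGACCT), which is the half-site of nuclear receptors such as PPARG. The ADIRF promoter is chr10:86968232-86968531 on the plus strand. Those of PLIN4 (chr19:4518437-4518736), PLIN5 (chr19:4535175-4535474) and PLIN3 (chr19:4867618-4867917) are on the minus strand.
ADIRF: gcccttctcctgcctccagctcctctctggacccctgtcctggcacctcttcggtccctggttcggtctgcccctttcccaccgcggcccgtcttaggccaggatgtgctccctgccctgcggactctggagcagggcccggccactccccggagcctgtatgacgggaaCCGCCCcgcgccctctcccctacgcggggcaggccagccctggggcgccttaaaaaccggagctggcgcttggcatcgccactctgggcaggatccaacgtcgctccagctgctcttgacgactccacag
PLIN4: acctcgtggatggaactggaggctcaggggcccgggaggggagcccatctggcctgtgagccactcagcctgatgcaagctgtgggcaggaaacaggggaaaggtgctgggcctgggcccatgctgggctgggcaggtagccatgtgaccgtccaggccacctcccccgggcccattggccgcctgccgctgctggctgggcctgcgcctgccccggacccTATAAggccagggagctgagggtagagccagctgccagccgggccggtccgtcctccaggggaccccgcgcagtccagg
PLIN5: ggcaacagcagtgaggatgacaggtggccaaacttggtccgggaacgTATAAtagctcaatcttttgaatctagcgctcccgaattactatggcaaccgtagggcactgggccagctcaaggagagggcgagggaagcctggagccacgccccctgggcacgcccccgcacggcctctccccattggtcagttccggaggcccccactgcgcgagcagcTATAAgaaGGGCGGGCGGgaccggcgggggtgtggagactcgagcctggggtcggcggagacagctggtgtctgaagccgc
PLIN3: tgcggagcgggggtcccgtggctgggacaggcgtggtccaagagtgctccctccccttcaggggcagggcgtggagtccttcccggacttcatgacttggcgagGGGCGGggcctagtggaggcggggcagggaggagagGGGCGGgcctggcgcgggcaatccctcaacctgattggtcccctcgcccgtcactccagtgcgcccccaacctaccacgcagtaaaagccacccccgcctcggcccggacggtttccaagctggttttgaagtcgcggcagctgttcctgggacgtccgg
The ADIRF window held 1 GC box, 80 bases before the start, and no TATAA. The PLIN4 window held 1 TATAA, 29 bases before the start, and no GC box. In the PLIN5 window TATAA occurred 203 and 31 bases before the start, followed by 2 overlapping GC boxes, while the PLIN3 window held 2 GC boxes and no TATAA. None of these 4 windows held AGGTCA, or the paired form AGGTCANAGGTCA (other strand TGACCTNTGACCT), which contains the half-site. Among 35116 RefSeq promoters of the same length, 20.4% held TATAA, 45.0% the GC box, 13.8% AGGTCA and 0.0228% the paired form. Only exact matches inside the 4 windows were counted, so nothing is read from their lack of AGGTCA. All 4 windows were rich in G and C, from 64.0% in PLIN5 to 70.7% in PLIN4. Promoters of 8 of the 10 members were searched, 14 in all, and those of FABP4 and FABP5 were left out of the search. Among the promoters searched, AGGTCA was found only in some of those of PPARG, which had more promoters searched than any other member. Nothing is said of FABP4 and FABP5.

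Intensities below are those of the scanner software, corrected for background and given in arbitrary units. Each array was scaled on its 75th percentile, which was 157 in H1975 against 138 in OR1 and 162 in OR2, and a ratio is taken after this scaling. Where a gene had several probes, the probe with the highest mean scaled intensity stood for it. A gene was called higher at a ratio of at least 2 and lower at a ratio of at most 0.5, the limits of the study's methods. The technical SD of a log2 ratio follows from the error that the software gives each spot. It was 0.205 at the median gene, and it holds none of the variation between cultures. Positions of probes are those in the files, on hg19, and without an annotation of that build the exon or UTR they lie in is not given here. A gene is called detected where the software marked its probe as well above background. Levels of different genes rest on different probes and were not set against each other. The sums over cell type markers below do add such levels, so bright probes weigh most in them.

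Of the 10 members, 8 were detected in every line and had a ratio. In OR1, 2 of these were higher (ADIRF and PLIN4) and 1 was lower (PLIN2), where 9.17% of all genes with a ratio were higher and 9.58% lower. In OR2, 3 were higher (ADIRF, PLIN4 and PLIN5) and 1 was lower (FABP5), against 7.72% and 8.7% of all genes. In both clones together 2 members were higher and 0 lower, against 5.09% and 6.32% of the genes detected in any line. Since the members were chosen on these ratios, nothing is read from these counts. The median log2 ratio of the 8 members was 0.30 in OR1 and 0.35 in OR2, and that of all genes with a ratio was 0.04 and -0.06.

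**Figure D1:**
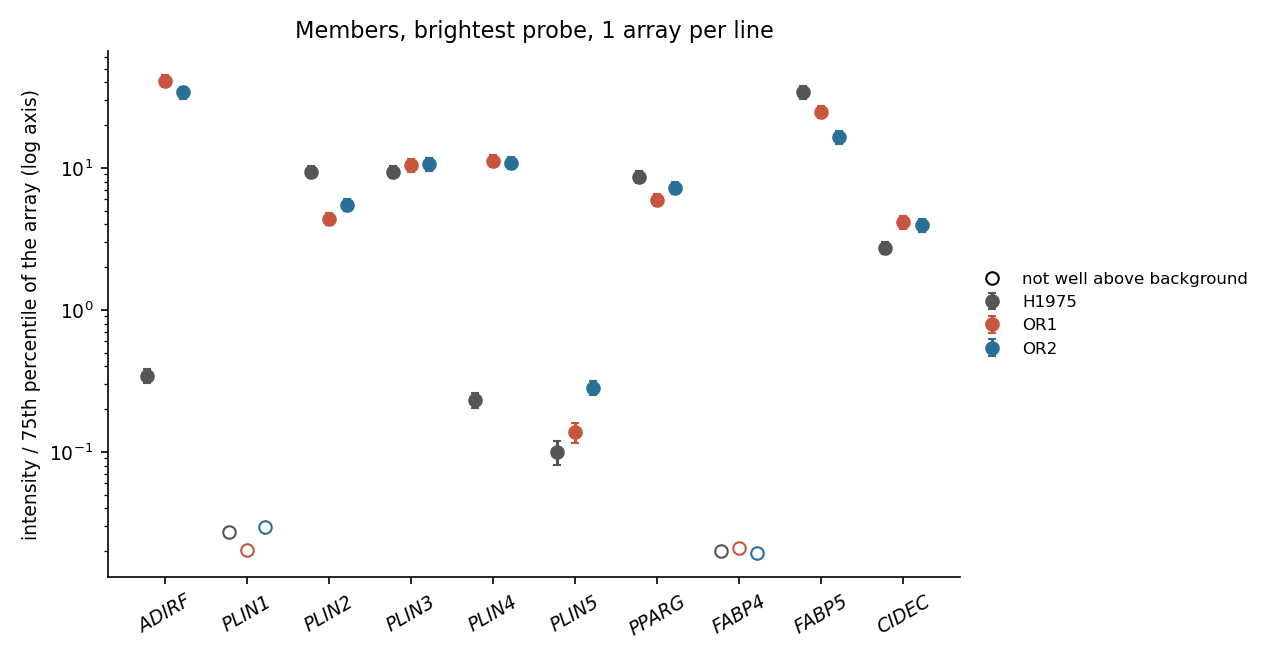
Scaled intensity of each member in H1975 (grey), OR1 (red) and OR2 (blue), as the brightest probe's intensity over the 75th percentile of its array, on a log axis. Bars are the scanner software's error of the single array, and open points were not well above background; ADIRF is at 0.344 in H1975, far below its 41.2 in OR1 and 34.0 in OR2, while PLIN1 and FABP4 have open points in all 3 lines.

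ADIRF is read by 1 probe, for the RefSeq transcript NM_006829, at chr10:88730308-88730367. Its intensity was 54.1 in H1975 against 5691 in OR1 and 5504 in OR2. The gene was thus dim but well above background in the parent line, whose dimmest probe called well above background stood at 12.6, and bright in both clones. The log2 ratio was 6.91 in OR1 and 6.63 in OR2, each with a technical SD of 0.22. That was the highest ratio among 21864 genes with one in OR1 and among 21686 in OR2, although genes below background in H1975 entered with a lower bound. Between the clones the ratio of OR1 to OR2 was 1.21, a log2 difference of 0.28 with a technical SD of 0.20. The size of the ratio to H1975 rests on the dim parent value. With normexp, which adds an offset of 50 to every intensity, the ratio was 57.0 in OR1 and 49.4 in OR2. Such an offset draws the ratios of dim probes towards 1 by construction.

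PPARG, the master regulator of fat cell formation, gave 1368 in H1975 against 823 in OR1 and 1169.7 in OR2 with its probe for NM_138711 (chr3:12458499-12458558). Its level was highest in the parent line, with ratios of 0.686 in OR1 and 0.832 in OR2, and neither clone passed the ratio. A second probe (chr3:12434128-12434187) gave 424, 286 and 393, with ratios of 0.770 and 0.903 in the same direction.

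PLIN4 coats small, newly formed droplets and is known from adipose tissue and muscle. Its single probe, for NM_001080400 at chr19:4502207-4502266, gave 36.4 in H1975 against 1550.5 in OR1 and 1756 in OR2. As with ADIRF, the parent line was dim and both clones were bright and close together. The log2 ratio was 5.60 in OR1 and 5.55 in OR2, each with a technical SD of 0.23, and the ratio of OR1 to OR2 was 1.03. PLIN4 ranked 4 from the highest ratio in OR1 and 2 in OR2. Under normexp correction it was at 19.0 and 19.2 times H1975.

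PLIN5, which tethers droplets to mitochondria in tissues that burn fat, is read by a probe for NM_001013706 at chr19:4523350-4523409, 21.1 kb from the probe of PLIN4. The probe was near background in the parent line, with 15.8 in H1975 against 19.0 in OR1 and 45.8 in OR2. Only OR2 passed the ratio, at 2.82 with a technical SD of the log2 ratio of 0.33, while OR1 was at 1.37 with 0.37. With normexp correction and its offset of 50 the ratio of OR2 was 1.40 and no longer past 2. The offset alone draws the ratio of so dim a probe towards 1, so the PLIN5 call depends on how such a probe is handled.

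PLIN3 is the perilipin that moves between cytosol and droplet in most cell types. Its probe for NM_005817 (chr19:4839115-4839174) is spotted 10 times on each array, and the SD between spots was 0.06, 0.05 and 0.03 on the log2 scale in that order of lines. Its intensity was 1481 in H1975 against 1439.7 in OR1 and 1716 in OR2. The ratios of 1.11 and 1.13 were 0.15 and 0.17 on the log2 scale. They were within 1 technical SD (0.20) of no change, but larger than the SD between spots. That technical SD rests on a software error of 10.0% on each array and not on the measured spread of the spots.

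PLIN2 is the perilipin found on droplets of nearly every non-adipose cell. Its brightest probe, for NM_001122 at chr9:19116370-19116429, gave 1477 in H1975 against 606 in OR1 and 892 in OR2. The parent line was highest, and the ratio was 0.468 in OR1 and 0.588 in OR2. A second probe, which the files assign to the transcript ENST00000380464 (chr9:19123403-19123462), went the other way, with 41.3, 103 and 50.5 and ratios of 2.84 in OR1 and 1.19 in OR2. The third, for ENST00000494753, was below background everywhere. The call of PLIN2 as lower in OR1 therefore holds for its brightest probe, and no direction is given for the gene as a whole.

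PLIN1, the main coat protein of the fat cell's droplet, gave 4.28 in H1975 against 2.82 in OR1 and 4.79 in OR2, all below the background limit. No ratio was taken for it.

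**Figure D2:**
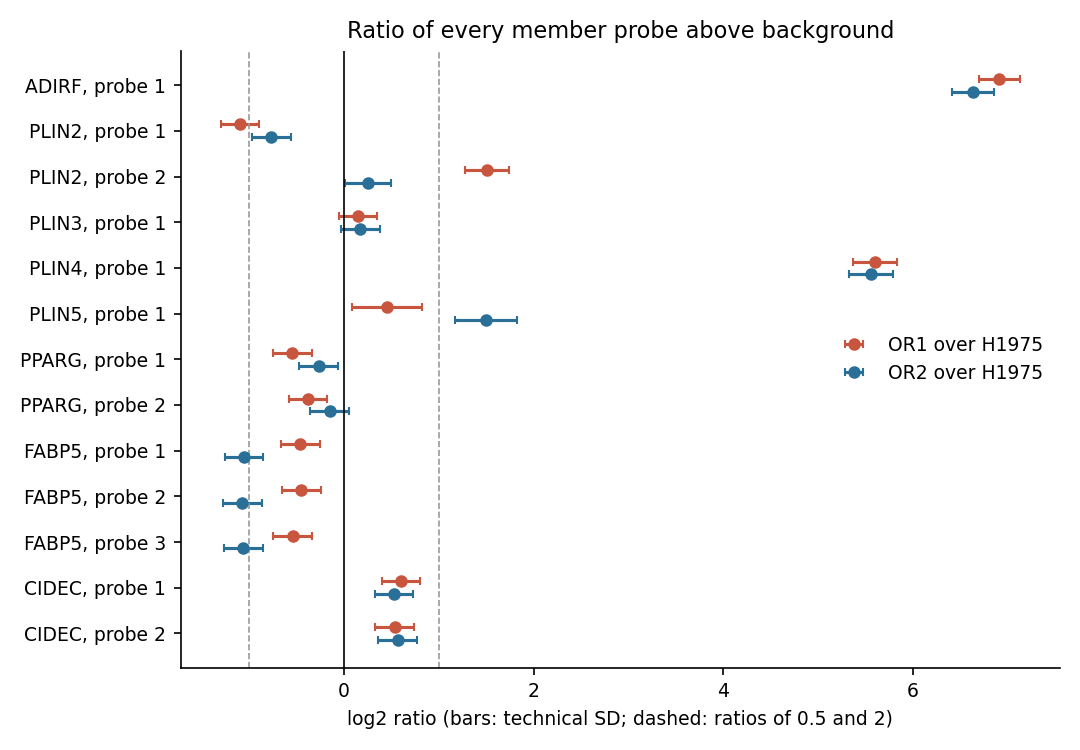
Log2 ratio to H1975 of every member probe well above background, for OR1 (red) and OR2 (blue), with bars of 1 technical SD and dashed lines at ratios of 0.5 and 2. ADIRF and PLIN4 sit between 5.55 and 6.91, the other probes lie between -1.09 and 1.51, and the PLIN2 probes point in opposite directions.

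CIDEC, which is largely a gene of fat cells, was well above background in all 3 lines, with 430.1 in H1975 against 573 in OR1 and 638 in OR2 at its probe for NM_022094 (chr3:9908399-9908458). Both clones were above the parent, at ratios of 1.52 and 1.44, and neither passed 2. The second probe of CIDEC gave 165, 210.2 and 252, with ratios of 1.45 and 1.48.

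FABP5, the fatty acid binding protein of epithelia, was bright in every line. Its brightest probe, for NM_001444, spans an intron between chr8:82196174 and chr8:82196772 and gave 5366 in H1975 against 3420.4 in OR1 and 2658 in OR2. The parent was highest and OR2 lowest, with ratios of 0.727 in OR1 and 0.482 in OR2. The other 2 probes gave ratios of 0.734 and 0.689 in OR1, and of 0.476 and 0.480 in OR2. One of these 2 also matches NR_002935, the transcript of a FABP5 pseudogene, so its signal cannot be assigned to FABP5 alone. OR2 lay close to the limit of 0.5, and FABP5 was not past it with quantile normalization, spike-in scaling or the authors' normalized values.

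FABP4, the binding protein of fat cells and macrophages, gave 3.15 in H1975 against 2.88 in OR1 and 3.11 in OR2 and was thus not detected.

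The clones were also compared with each other. Of the 8 members with a ratio, PLIN5 was lower in OR1 than in OR2, at 0.487, and 0 were higher, where 2.48% of all genes were lower and 2.89% higher. With normexp PLIN5 was at 0.841, so that no member was then past the ratio between the clones. FABP5 was at 1.51, ADIRF at 1.21 and PLIN4 at 1.03. The brightest probe of PLIN2 was at 0.796 and its second probe at 2.38.

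**Figure D3:**
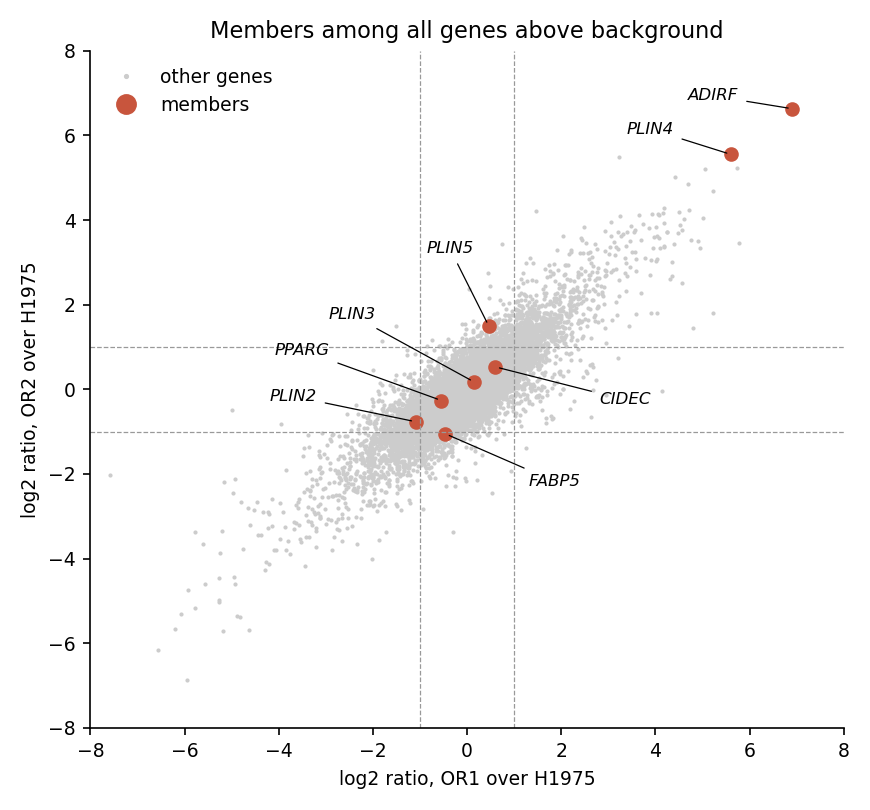
Log2 ratio to H1975 in OR2 against that in OR1 for the 18591 genes detected on every array (grey), with the 8 members in red and dashed lines at ratios of 0.5 and 2. ADIRF (6.91, 6.63) is at the upper right end of the cloud with PLIN4 (5.60, 5.55) next to it, while the other 6 lie within its dense centre or at its edge.

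Among the other 18590 genes detected on every array, the gene nearest to ADIRF in its pair of log2 ratios was PLIN4, at a Euclidean distance of 1.69. The next were COL12A1 (distance 1.82) and COL8A1 (2.34), which encode collagen chains, ISYNA1 (2.58), the enzyme that makes inositol phosphate from glucose phosphate, and LRIG1 (2.83), a membrane protein that restrains EGFR family receptors. COL12A1 gave 159 in H1975 against 7469 in OR1 and 6189.5 in OR2, ratios of 53.4 and 37.8. ISYNA1 gave 71.0, 2311 and 1865 (37.1 and 25.6), and LRIG1 gave 54.2, 1236 and 1613 (26.0 and 29.0). COL8A1 gave 16.0, close to background, 462 and 606, with ratios of 33.0 and 37.0. All 4 pairs of ratios were smaller under normexp, at 39.6 and 28.0 for COL12A1, 20.2 and 14.8 for ISYNA1, 12.2 and 14.2 for LRIG1 and 7.67 and 8.59 for COL8A1. Likeness here is over 2 ratios that share the H1975 array, so it describes size alone.

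The genes around ADIRF and PLIN4 did not share their ratios. Within 250 kb of the ADIRF probe, 10 of 13 neighbouring genes had a ratio, and the middle log2 ratio was -0.09 (OR1) and 0.23 (OR2). In OR1, MMRN2 was higher at 2.43 and FAM25A lower at 0.438. In OR2, MMRN2 (3.28), ADIRF-AS1 (2.84) and LDB3 (at least 2.17) were higher and FAM25A was lower at 0.399. ADIRF-AS1, a transcript named for its antisense position to ADIRF and read by its own probe 4.88 kb away, gave 88.3 in H1975 against 119 in OR1 and 257 in OR2. SNCG, whose probe lies 9.19 kb from that of ADIRF, had ratios of 0.853 and 0.885. The files also list the ADIRF probe under a long noncoding transcript of the same place, lnc-C10orf116-1, and the array cannot tell the 2 apart.

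Around PLIN4, 19 of 20 neighbours had a ratio, and the middle log2 ratio was 0.21 (OR1) and 0.02 (OR2). PLIN5 (1.37 and 2.82) was higher in OR2. SEMA6B was higher in both clones at 2.34 and 2.52, and LRG1, a secreted glycoprotein, was lower in both at 0.146 and 0.254. MPND was higher in OR1 at 2.03, and LOC100130930 was lower in OR2 at 0.463. HDGFRP2, with its probe 5.17 kb from that of PLIN4, was at 1.08 and 0.750. No neighbour within 250 kb of either gene came near the ratio of the gene itself.

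**Figure D4:**
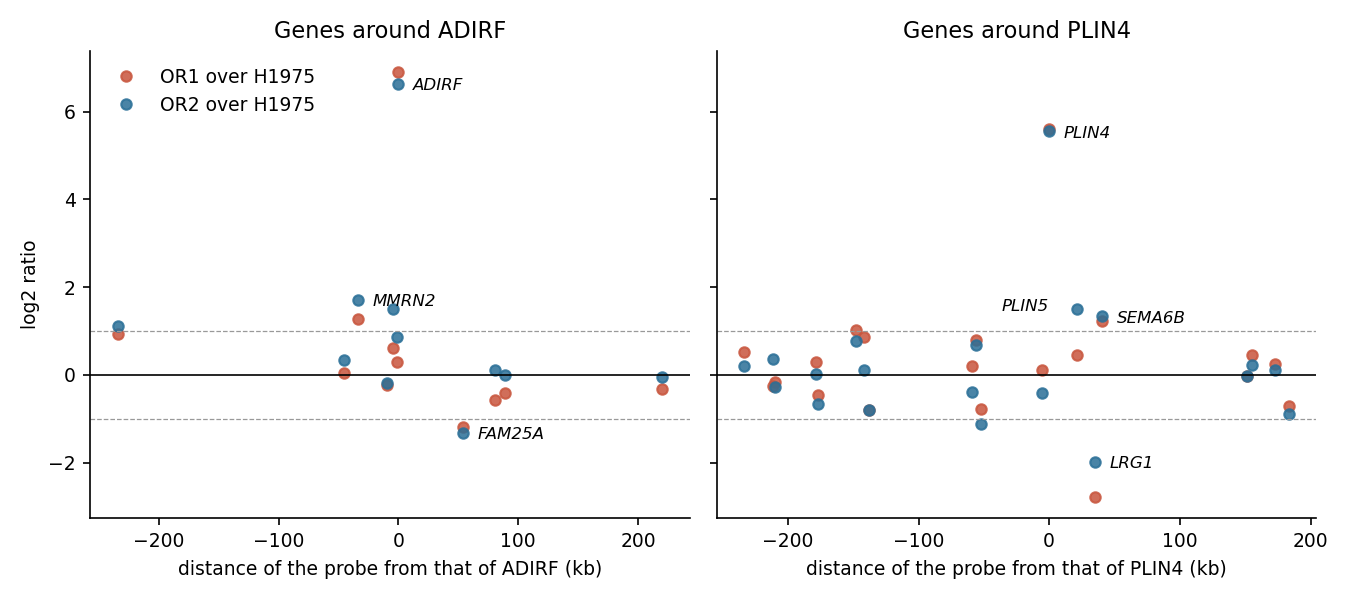
Log2 ratio to H1975 of the genes with a ratio in both clones within 250 kb of the ADIRF probe (left) and the PLIN4 probe (right), in OR1 (red) and OR2 (blue), against distance along the chromosome in kb, with dashed lines at ratios of 0.5 and 2; genes below background on 1 array are drawn at their bound. ADIRF and PLIN4 stand alone at 0 kb, and apart from LRG1, at 0.146 and 0.254, neighbours lie between ratios of 0.399 and 3.28.

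Further genes of the droplet, of lipid metabolism, of fat cells and of fatty acid and retinoid binding were taken from 6 lists. These held 102 genes in all, of which 73 were detected in at least 1 line. In both clones 3 of these were higher and 4 lower, close to the shares of all genes (5.09% and 6.32%). The shares of all genes past the ratio in 1 clone, for the counts of each list below, were 9.17% higher and 9.58% lower in OR1 and 7.72% and 8.7% in OR2, and with so few genes a list nothing is read from the counts of a single one. The median log2 ratio over all lists was 0.02 in OR1 and 0.12 in OR2, and the median of all genes with a ratio was 0.04 and -0.06.

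Of 19 genes of the droplet coat and of droplet formation, 16 were above background, and 0 were higher in either clone. HILPDA, a hypoxia-induced droplet protein that inhibits the lipase PNPLA2, was lower in both, with 4609 in H1975 against 1648 in OR1 and 1616 in OR2 and ratios of 0.408 and 0.341. LDAF1, a partner of seipin in droplet assembly, was lower in OR1 at 0.408 and stood at 0.578 in OR2. Seipin itself (BSCL2) was at 1.19 and 1.18. The list's median log2 ratio was 0.03 in OR1 and 0.15 in OR2.

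Of 24 genes of triglyceride and sterol ester synthesis, 20 were above background, with 3 higher and 2 lower in OR1 and 3 higher and 1 lower in OR2. AGPAT3, an acyltransferase of glycerolipid synthesis, was the 1 gene past the ratio in both clones, with 91.0 in H1975 against 549.9 in OR1 and 448 in OR2 and ratios of 6.89 and 4.79. The enzymes of the last step to triglyceride were past the ratio in 1 clone each, DGAT1 at 2.21 in OR1 and 1.79 in OR2 and DGAT2 at 1.55 and 2.20. SOAT1, which makes cholesterol esters, was at 0.465 and 0.527, and ACSL1, which activates fatty acids, at 0.556 and 0.431. The list had a median log2 ratio of -0.07 (OR1) and 0.26 (OR2).

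All 10 genes of lipolysis were above background, with 2 higher and 1 lower in OR1 and 1 higher and 1 lower in OR2. G0S2, an inhibitor of PNPLA2, was lower in both clones, with 7189 in H1975 against 1308 in OR1 and 2998 in OR2 and ratios of 0.207 and 0.406. ABHD6, a monoacylglycerol lipase, was higher in both, with 489.6, 949.6 and 1231 and ratios of 2.21 and 2.45, although OR1 was at 1.46 with spike-in scaling. PNPLA2, the lipase that takes the first fatty acid from triglyceride, had log2 ratios of 0.14 and -0.27, and LIPE, the lipase of the next step, had ratios of 1.35 and 1.30. At the median the log2 ratio of the list was 0.13 (OR1) and -0.11 (OR2).

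Of 20 adipogenic transcription factors, 14 were above background, with 0 higher and 1 lower in OR1 and 2 higher and 3 lower in OR2. PRDM16, a regulator of brown fat identity, was lower in both, with 139.9 in H1975 against 3.76 in OR1, where it was not well above background, and 33.0 in OR2, ratios of at most 0.0929 and of 0.229. With normexp these were 0.392 and 0.461, still past the limit. The call rests on 1 of 3 PRDM16 probes, and the others were well above background on no array. CEBPA was at 1.33 in OR1 and 2.31 in OR2, and RXRA, the partner of PPARG on DNA, at 1.15 and 2.16. PPARD, a receptor related to PPARG, was at 0.572 and 0.456, and PPARGC1B, a coactivator of such receptors, at 0.647 and 0.489, both past the ratio in OR2. The list had a median of -0.18 (OR1) and 0.20 (OR2) on the log2 scale.

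Of 18 PPARG targets and adipocyte genes, 10 were above background, with 2 higher and 1 lower in OR1 and 1 of each in OR2. CFD (adipsin) was higher in both clones, with 333 in H1975 against 876 in OR1 and 875 in OR2 and log2 ratios of 1.59 and 1.36, although OR1 was just under a ratio of 2 with spike-in scaling, at 1.99. CD36, a fatty acid transporter, was well above background in OR1 alone, at least 2.71 times H1975. ANGPTL4, an inhibitor of lipoprotein lipase, was at 0.789 in OR1 and 0.368 in OR2. The median log2 ratio was -0.10 in OR1 and 0.12 in OR2.

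Of the 11 other fatty acid and retinoid binding proteins, 3 were above background. CRABP2, a carrier of retinoic acid, was lower in both clones, with 3014 in H1975 against 788 in OR1 and 727 in OR2 and ratios of 0.298 and 0.235. Its second, dimmer probe gave 1.13 and 0.713, and with the median of both probes CRABP2 was at 0.580 in OR1 and not past the ratio. The median log2 ratio of the 3 genes was -0.53 in OR1 and -0.83 in OR2.

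Most markers of fat cells were below background in every line, those with high ADIRF and PLIN4 included. Of 8 adipocyte markers only CIDEC and LIPE were well above background, in each of the 3 lines, and ADIPOQ, LEP, PLIN1, CIDEA, FABP4 and LPL were so on no array. Their summed scaled intensity was 6.54 in H1975 against 9.25 in OR1 and 8.86 in OR2. All 6 epithelial markers were well above background in every line, with a sum of 2480 in H1975 against 1071 in OR1 and 1064 in OR2, and EPCAM, CDH1, KRT7 and KRT19 were lower in both clones. KRT8 (1.12 and 0.964) and KRT18 (0.884 and 0.806) passed the ratio in neither, and most of the difference in the sum lay in the bright probes of KRT7 and KRT19. Of 6 fibroblast markers H1975 had 2 above background, OR1 3 and OR2 1, with sums of 4.27, 4.96 and 0.646. Of 4 leukocyte and macrophage markers on the array 2 were above background. CD14 had ratios of 4.25 and 6.56 and PTPRC of 1.12 and 0.949. The sums were 1.85, 7.33 and 11.2, of which CD14 gave 1.68, 7.13 and 11.0. Of 4 endothelial markers 3 were above background, with sums of 0.596, 0.730 and 0.661. The part of the epithelial and CD14 shifts in the ratios of ADIRF and PLIN4 was not tested.

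**Figure D5:**
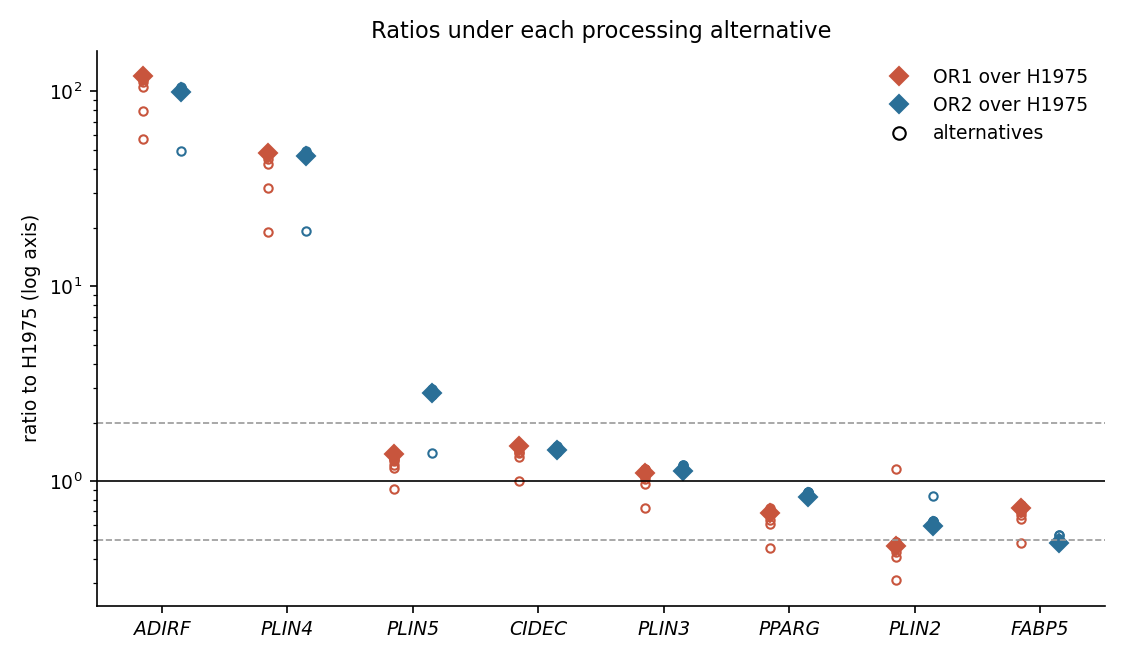
Ratio to H1975 of the 8 members with a ratio, in OR1 (red) and OR2 (blue) on a log axis, with filled diamonds for the reported value, open circles for the processing alternatives and dashed lines at 0.5 and 2. ADIRF spans 57.0 to 120.0 in OR1 and PLIN4 19.0 to 48.5, both far above 2 throughout, while PLIN2 in OR1 spans both sides of 1 when the median of its probes is used.

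Under every scaling, background correction and filter that was tried, ADIRF stayed between 49.4 and 120.0 times H1975 and PLIN4 between 19.0 and 49.4 times. CIDEC, PLIN3 and PPARG passed the ratio in neither clone in any of these, except PPARG at 0.454 in OR1 under spike-in scaling.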

How the data were processed

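RNA of H1975, OR1 and OR2 was labelled by the authors with Cy3 (Low Input Quick Amp labelling) and hybridized to SuperPrint G3 Human 8×60K arrays, 1 per line, all on 1 slide. The deposited intensities are Agilent Feature Extraction's processed signals, which the software corrects for background and leaves unscaled between arrays. The submitters' processing notes name version 9.5.1.1 of that software and the file headers 10.7.1.1. The deposited table of normalized intensities, whose normalization is not given in the sources used here, served as an alternative.

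Each array held 62976 spots, of which 60901 were no controls. After 45 (H1975), 61 (OR1) and 46 (OR2) outlier spots were left out, replicate spots were averaged in log2 and scaled by subtracting the 75th percentile of their array. Between 45.6% and 45.9% of 58200 probes were well above background, none was saturated, and 1 array per line limits the precision. A probe not well above background on 1 of 2 arrays gave a bound, from the higher of its own signal and the lowest signal well above background on that array. The values were computed with Python 3.11.15 (pandas 2.3.3, numpy 2.4.6), normexp (offset 50) with limma 3.58.1 in R 4.3.3, and the ratio step was tested on simulated data. Alternatives were quantile, median, spike-in and no scaling, normexp, the background filter, outlier spots, the choice of probe and ratios of 1.5 and 4. The members, the lists and the markers were chosen with earlier results of these data known. Named genes are the members, list genes past the ratio in the same direction in both clones and the 5 genes nearest to ADIRF. Other genes were named after their values were seen. CD68 and LYZ were not analysed here.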

Additional observations from a re-analysis of the deposited data

How the results depend on the processing

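Over the alternatives, 232 of 264 member ratios moved by less than 1 technical SD. The other side of 1 was reached by 17, most of them ratios of OR1 to OR2 near 1 (ADIRF went from 1.21 to 0.761 with spike-in scaling, and PLIN2 from 0.796 to 1.38 with the median over its probes). Of these 17, 1 had been past the ratio, PLIN2 in OR1, at 1.15 with the median over its probes. Spike-in scaling, on 7 probes, shifted the genes of OR1 by a median of -0.60 on the log2 scale (no scaling -0.19, median scaling -0.11), and PLIN3, PLIN5 and CIDEC then stood at 0.734, 0.910 and 1.01 there. The count of members higher in OR1, in OR2 and in both clones stayed within 1.5 times of 2, 3 and 2 in every alternative. The counts of the single clones were not constant. In OR2, PLIN5 dropped out with normexp (1.40) and at a ratio of 4 (2.82). In OR1, CIDEC came in at a ratio of 1.5 (1.52) and PLIN2 with any probe passing (2.84). The count lower in OR1 (1) was 3 with spike-in scaling, 0 with the median over probes and 0 at a ratio of 4. The count lower in OR2 (1) was 0 with quantile normalization, with spike-in scaling, with the authors' normalized intensities and at a ratio of 4, and 2 at a ratio of 1.5. The count lower in both clones (0) was 1 at a ratio of 1.5. Between OR1 and OR2, the count lower (1) was 0 with normexp and at a ratio of 4, and the count higher (0) was 1 with any probe passing and 1 at a ratio of 1.5. For the lists, an alternative chosen after seeing the data, the 3 genes higher in both clones became 1 with spike-in scaling (ABHD6 at 1.46 and CFD at 1.99 in OR1), 11 at a ratio of 1.5 and 1 at a ratio of 4, and the 4 lower became 7 with any probe passing, 10 at a ratio of 1.5 and 1 at a ratio of 4. The stricter and looser ratios change the counts by construction, and the offset of normexp draws ratios of dim probes towards 1. Beyond these, the cause was not tested. There were 0 saturated spots to leave out, and the slide as a block could not be fitted on 1 slide. No paired analysis was possible because each line is 1 array. No replicate could be left out for the same reason, and signal near background limits PLIN5 and the parent values of ADIRF and PLIN4.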
